A study of Rattus rattus with 12 samples.

Results

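The 301 transcripts described here were low in rat perigonadal fat 3 days after an injection of ice slurry and were back near the control level, as a group mean, at day 14. They were selected on measured values, out of 46726 transcripts. A transcript needed more than 3 reads in all 12 libraries and a group mean of at least 5 TPM (Salmon's measure of a transcript's level, scaled for its length and the depth of the library) in its highest group, and it could not be among the 100 most abundant of the control group. These filters left 14560 transcripts, called the filtered transcripts from here on. The ratio is the group mean of TPM + 1 divided by that of control. The rule required a ratio of at most 0.5 at day 3 with the 3 day 3 libraries below the 3 control libraries, and a ratio of 0.67 to 1.5 at day 14. Day 3 and day 14 levels against control are therefore given as a description, and the day 1 libraries, apart from the filters, were not used in the choice.

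Adult male Sprague-Dawley rats, aged 8 weeks with a weight of 200 g when bought and so older at treatment, ate a high-fat diet, in which fat supplied 60% of the kcal, during the 9 weeks before treatment and up to the end of the experiment. Through an abdominal incision, 10 ml of slurry was injected into the perigonadal fat of one side, and tissue was taken at day 1, day 3 or day 14. Poly(A) RNA was sequenced in 3 libraries per group, which the methods call biologic replicates. By the same methods, the untreated side of the rats was the control, so the control tissue came from operated animals, and the rat behind each control library is not given in the sources used here. The labels list Rattus rattus as the organism, whereas Sprague-Dawley is a strain of the brown rat. The slurry is a mixture of ice, saline and glycerol, and these libraries include no group given melted slurry.

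Perigonadal fat is a visceral fat depot around the gonads. It is made of lipid-filled adipocytes, which take up most of its volume, together with preadipocytes, fibroblasts, vessel cells and resident macrophages. Adipocytes are more easily damaged by cold than most other cells, because their lipid crystallizes above the freezing point of water, and cooling used to remove fat in this way is known as cryolipolysis. A transcript is one of the RNA forms made from a gene. Salmon divides the reads that forms of a gene share among them, so a low transcript does not show that its gene as a whole was low.

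The total estimated count was 22715819, 26559350 and 25874329 in control replicates 1 to 3. The day 1 libraries had 25598337, 23009910 and 20466915 counts, and the day 3 libraries had 26216660, 22395408 and 28802360. Those of day 14 had 21057277, 25826040 and 26729799. Counts differed beyond sampling noise in each of the 12 pairs of libraries of a group (chi-square over its degrees of freedom, 40.5 to 199), so no library was a copy of another of its group. The files do not pair the identifiers with gene names, and the rat gene table at hand, with 32100 genes of the assembly Rrattus_CSIRO_v1, matched 0 of the 46726. Transcripts are therefore given by identifier, those of the same gene could not be recognized, and markers of adipocytes or other cell types were not checked.

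For these transcripts 3 libraries stood apart within their groups. Replicate 2 of day 1 was near the control level, while replicates 1 and 3 were far under it. At day 14, replicate 1 was low and replicate 3 was high. Every library was kept in the group its label gives, and whether the labels of these 3 libraries are right was not tested, so the group values of day 1 and day 14 hold only as far as the labels do. The main counts and group values of day 1 and day 14 are given with and without these libraries, and other values that use them are not. The comparisons with control all share the same 3 control libraries and are not independent of each other.

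The 301 transcripts together held 2.68%, 2.15% and 1.84% of all TPM in control replicates 1 to 3, a mean of 2.22% ± 0.424 (SD, n = 3). At day 1 their share was 0.481%, 2.26% and 0.697%, a mean of 1.15% ± 0.969 (SD, n = 3), or a mean of 0.589% without replicate 2. At day 3 it was 0.638%, 0.632% and 0.608%, a mean of 0.626% ± 0.0160 (SD, n = 3). The day 3 libraries were thus close to each other, and they lay between the 2 low libraries of day 1, with replicate 2 of day 1 inside the control range. At day 14 the share was 1.10%, 1.85% and 3.00%, a mean of 1.98% ± 0.954 (SD, n = 3), which was 2.42% without replicate 1 and 1.48% without replicate 3. The control range was bracketed at day 14, with replicate 1 below it, replicate 2 just inside it and replicate 3 above it. In bulk tissue, fewer cells of a type and less RNA per cell cannot be told apart.

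The median over the 301 transcripts of the ratio in a single library (its TPM + 1 over the control mean of TPM + 1) gave a second measure of their level. It was 1.16, 0.972 and 0.872 in the control replicates and 0.280, 0.982 and 0.397 at day 1. The day 3 libraries had 0.348, 0.357 and 0.341, and the day 14 libraries 0.531, 0.820 and 1.25. Over the filtered transcripts the median lay between 0.920 and 1.198 in every library. Its day 1 values were 1.12, 1.04 and 1.198, and its day 14 values were 1.13, 1.02 and 1.00. The TPM of a library sum to a fixed total, so that levels are relative to the rest of the library. The 100 most abundant control transcripts held 40.2%, 38.4% and 34.8% of TPM in the controls and 30.9%, 35.8% and 29.0% at day 1. Their share at day 3 was 29.7%, 31.4% and 27.7%, and that at day 14 was 30.8%, 34.8% and 38.6%. This share was lowest of its group in replicate 1 of day 14, and at day 1 it was highest in replicate 2, as was the level of the 301 transcripts. Its part in their levels was not tested.

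**Figure D1:**
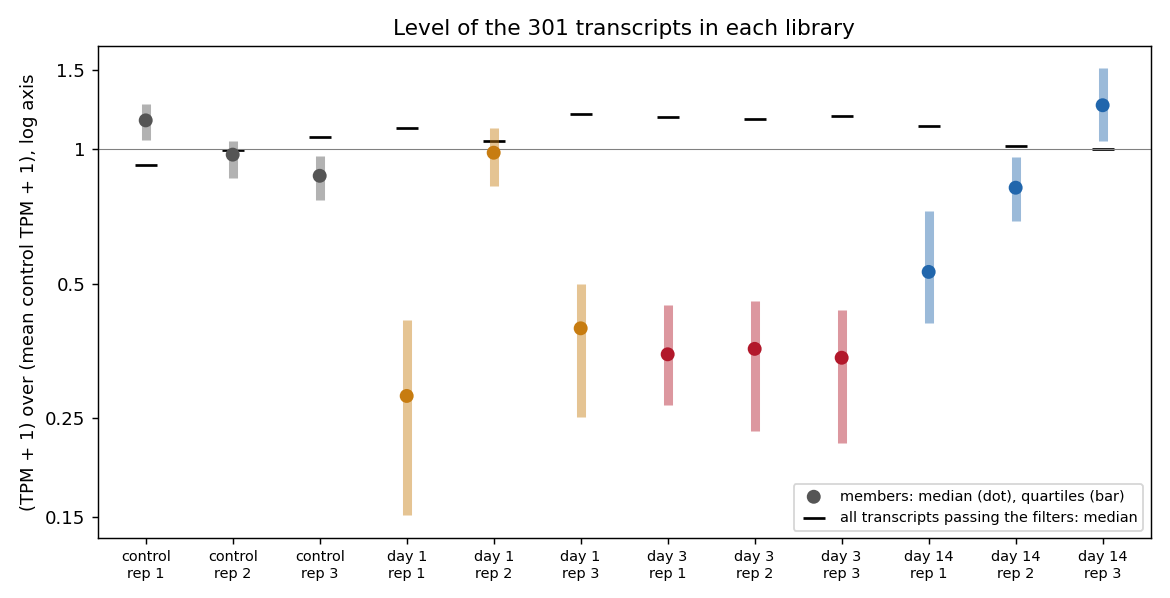
Level of the 301 transcripts in each of the 12 libraries, as the ratio of TPM + 1 to the control mean of TPM + 1 on a log axis, with the median as a dot, the quartiles as a bar and the median of all 14560 filtered transcripts as a black dash. The medians of day 1 replicates 1 and 3 (0.280 and 0.397) lie with those of day 3 (0.341 to 0.357), and the median of day 1 replicate 2 (0.982) lies with the controls.

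At day 3 the group ratio had a median of 0.373 and ran from 0.0493 to 0.4998, with quartiles of 0.262 and 0.4496. The median group mean was 29.5 TPM in control and 8.24 TPM at day 3. The transcript with the highest control level, ENSRNOT00000021055.8, had 1278, 925 and 677 TPM in control, 106, 908 and 214 TPM at day 1, 222, 110.3 and 160 TPM at day 3, and 184, 564 and 1537 TPM at day 14. Its day 3 libraries were all low, replicate 2 of day 1 was inside the control range, and the day 14 libraries reached from below to above the controls. Its ratio at day 3 was 0.172. The lowest ratio at day 3, 0.0493, was that of ENSRNOT00000031586.7, with 541, 851 and 207 TPM in control, 3.89, 879 and 28.3 TPM at day 1, 45.9, 18.8 and 11.3 TPM at day 3, and 216, 511 and 1059 TPM at day 14. Here the control libraries themselves differed widely, replicate 1 of day 1 was below the day 3 libraries and replicate 3 among them, and replicate 2 of day 1 was above all controls.

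The rule fixed the direction of all 301 at day 3. Of the filtered transcripts, 571 had a day 3 ratio of at most 0.5, and in 536 of these the 3 day 3 libraries were also below all controls. Of the 536, the 301 members were 56.2%, a further 202 had a ratio under 0.67 at day 14 and 33 had one over 1.5. The members thus made up 2.07% of the filtered transcripts. Day 3 libraries below all controls, as the rule required, were found in 11.4% of the filtered transcripts. By edgeR's quasi-likelihood test, 0 of the 301 members passed an adjusted p of 0.05 and a 2-fold change at day 3 against control, beside 0.0143% of the 28016 transcripts tested. The unadjusted p was under 0.05 for 276 members (91.7%, against 16.7% of all transcripts), the lowest adjusted p was 0.0792, and DESeq2 called 226 members lower, beside 3.31% of the transcripts it tested. The median log2 fold change of members was -1.88 in edgeR, against 0.03 over all transcripts tested. These counts come from the contrast that chose the members.

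The limits of the rule fell within a continuous range of values. The highest day 3 ratio inside was 0.4998 and the lowest outside, among transcripts that met the rest of the rule, was 0.5002. There were 74 members with a ratio between 0.45 and 0.5 and 77 other transcripts between 0.5 and 0.55. At day 14 the members ran from 0.672 to 1.499, and the nearest transcripts outside had ratios of 0.669 and 1.54. A ratio under 0.75 was found in 59 members, and 46 transcripts lay just outside, between 0.6 and 0.67. Of the 100 most abundant control transcripts, which the rule leaves out, 9 met its other conditions.

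At day 1, the question was whether the later low level was already present a day after slurry. Of the 301 transcripts, 298 (99.0%, against 29.4% of the filtered transcripts) had a day 1 group mean under that of control. The median ratio of the 301 was 0.553 (quartiles 0.467 and 0.662), against 1.14 over the filtered transcripts. On the log2 scale the medians were -0.85 and 0.19. A ratio of at most 0.5 was found in 107 members and in 2.14% of the filtered transcripts. All 3 day 1 libraries were below all controls in 60 members (19.9%), beside 3.65% of the filtered transcripts, and above all controls in 0 members, beside 12.9%.

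These day 1 means combined libraries that did not resemble each other. Replicate 1 was below all controls in 289 members, replicate 3 in 286 and replicate 2 in 69, where the filtered transcripts gave 24.6%, 20.3% and 16.9%. In replicate 2, a further 178 members were within the control range and 54 (17.9%, against 31.0% of the filtered transcripts) above it. Replicates 1 and 3 were both below all controls in 279 members (92.7%), against 14.1% of the filtered transcripts, and in 219 of these (72.8% of the members, against 10.4% of the filtered transcripts) replicate 2 was not. Without replicate 2, the median ratio was 0.350 and 243 members had a ratio of at most 0.5, beside a median of 1.19 and a share of 5.41% over the filtered transcripts. Replicate 2 was the highest library of day 1 in 284 members (94.4%) and in 26.1% of the filtered transcripts. In 249 members (82.7%) the level in replicate 1 was at most 0.5 of that in replicate 2, against 10.1% of the filtered transcripts.

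By edgeR, 0 of the 301 members were called at day 1 against control, beside 0.00357% of all transcripts tested, while the unadjusted p was under 0.05 for 63 members (20.9%) against 7.77% of all transcripts. DESeq2 called 4 members, all lower, or 1.33% of the 300 members with an adjusted p, against 0.725% of its transcripts called lower. The lowest adjusted p of a member was 0.632 in edgeR. The median log2 fold change of members was -1.06, with a median SE of 0.63. Without replicate 2 of day 1, edgeR called 4 members, all lower (1.33%), beside 0.0919% of the transcripts tested in that fit, where 27 were called lower and 6 higher. The number with an unadjusted p under 0.05 depended on single libraries. It was 259 (86.0%, against 14.4% of all transcripts) without replicate 2 of day 1, 14 (4.65%, against 6.52%) without replicate 1 and 12 (3.99%, against 4.22%) without replicate 3. Without control replicates 1 to 3 in turn it was 12 (3.99%, against 3.75%), 44 (14.6%, against 7.21%) and 71 (23.6%, against 9.13%). The controls of this comparison are those the rule used to choose the members, so part of any distance to the background is set by the choice. The spread of members between the day 1 libraries was large, with a median coefficient of variation of 74.1%, against 24.4% for the filtered transcripts.

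The lowest day 1 ratio, 0.268, was that of ENSRNOT00000072698.3. It had 238, 227 and 230 TPM in control, 14.5, 147 and 22.8 TPM at day 1, 65.8, 73.7 and 59.9 TPM at day 3, and 44.9, 153 and 385 TPM at day 14. The 3 controls were nearly equal and all day 1 libraries were under them, with replicate 2 the nearest. Its log2 fold change at day 1 was -2.04 (SE 0.93, adjusted p = 0.632 in edgeR). ENSRNOT00000107045.1, with a ratio of 0.271, had 46.3, 31.4 and 38.2 TPM in control, 4.25, 18.2 and 6.77 TPM at day 1, 10.6, 9.95 and 4.90 TPM at day 3, and 14.2, 37.4 and 37.4 TPM at day 14. Day 1 and day 3 were both below all controls without overlap, and at day 14 only replicate 1 was. Its log2 fold change at day 1 was -2.14 (SE 0.61, adjusted p = 0.632 in edgeR and 0.0239 in DESeq2).

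A day 1 mean above control was found in 3 members (0.997%, against 70.6% of the filtered transcripts). ENSRNOT00000115548.1 had the highest ratio, 1.29, with 9.19, 15.2 and 9.96 TPM in control, 30.5, 7.14 and 7.40 TPM at day 1, 8.10, 1.64 and 3.63 TPM at day 3, and 9.39, 11.5 and 13.6 TPM at day 14. The high mean came from replicate 1 of day 1, and the other 2 libraries of that day were below the controls. Its log2 fold change at day 1 was 0.25 (SE 0.68, adjusted p = 0.973 in edgeR). ENSRNOT00000034188.5, with a ratio of 1.14, had 19.2, 19.0 and 16.9 TPM in control, 17.1, 26.2 and 20.1 TPM at day 1, 8.91, 8.85 and 6.91 TPM at day 3, and 6.19, 9.76 and 20.4 TPM at day 14. All of its day 1 libraries were within or above the control range, so the lower level was seen at day 3 and in 2 day 14 libraries only. The log2 fold change at day 1 was 0.03 (SE 0.41, adjusted p = 0.999 in edgeR).

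**Figure D2:**
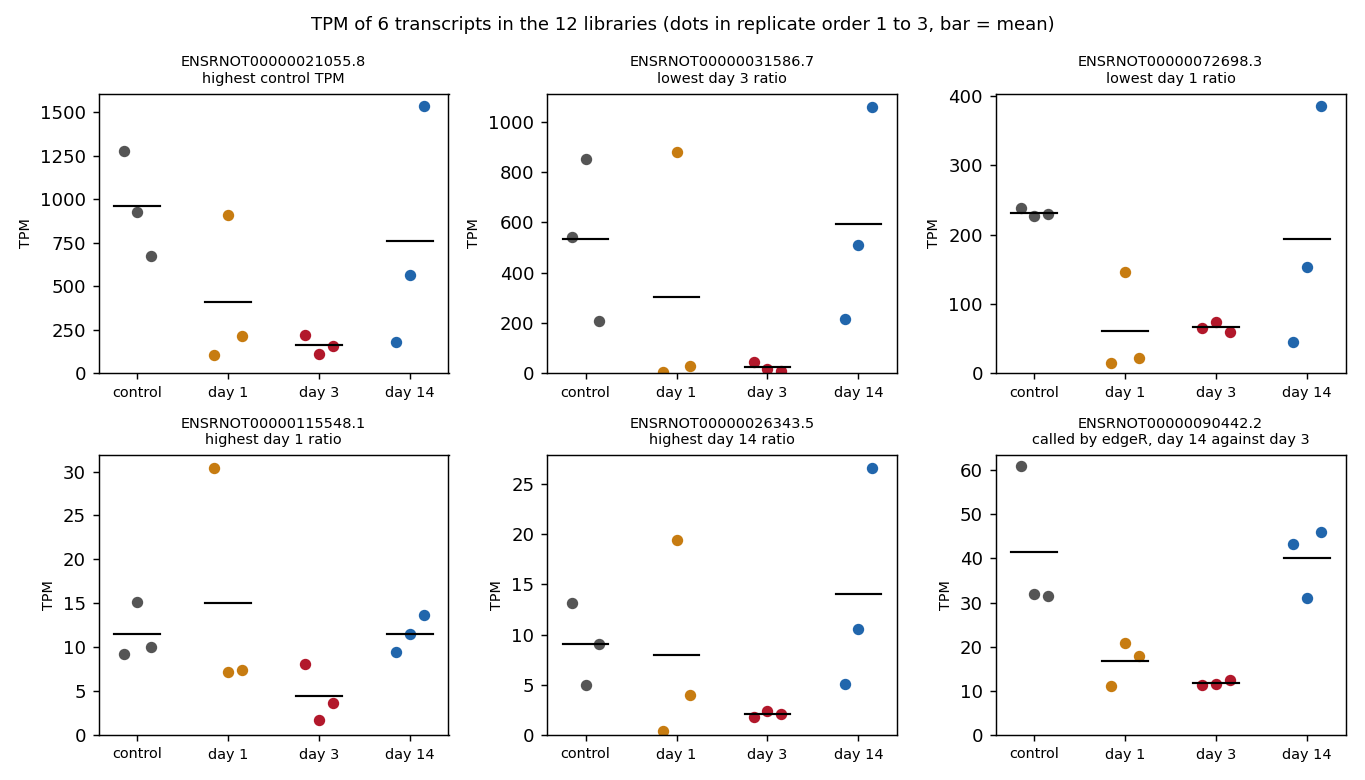
TPM of 6 of the named transcripts in the 12 libraries, on linear axes that start at 0, with the 3 replicates of a group in order from left to right and the group mean as a bar. In ENSRNOT00000031586.7, replicate 2 of day 1 had 879 TPM beside 3.89 and 28.3 TPM in replicates 1 and 3, and in ENSRNOT00000090442.2 the 3 day 14 libraries (30.9 to 45.95 TPM) were all above those of day 3 (11.3 to 12.4 TPM).

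From day 1 to day 3, the group mean was lower at day 3 in 293 members (97.3%), against 45.9% of the filtered transcripts. The day 3 libraries are used by the rule, and the day 1 libraries are not. Part of any distance to the background, here and in the tests between these days, is therefore set by the choice. All 3 day 3 libraries were below all 3 day 1 libraries in 38 members (12.6%), beside 5.75% of the filtered transcripts. Day 3 was below replicate 2 of day 1 in 293 members (97.3%), against 23.1% of the filtered transcripts. Against replicates 1 and 3 alone, the day 3 libraries were all lower in 40 members (13.3%, against 16.0% of the filtered transcripts) and all higher in 36 (11.96%, against 18.6%), so that neither share was above that of the filtered transcripts. Also, the mean of these 2 day 1 libraries was under the day 3 mean in 160 members. Replicate 1 of day 1 was below the lowest day 3 library in 157 members and replicate 3 in 47. For these counts the share of the filtered transcripts is not given, so nothing is read from them. The lower mean of day 3 against day 1 thus came with replicate 2 of day 1. Without that library the members were about evenly divided by their means. Whether the filtered transcripts were divided in the same way is not given, so the even division is not read as particular to the members.

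By edgeR, 0 of the 301 members were called between day 3 and day 1, beside 0.00357% of all transcripts tested, with an unadjusted p under 0.05 for 56 members (18.6%) against 9.27% of all transcripts. DESeq2 called 10 members, all lower at day 3 (3.33%, against 0.847% of its transcripts called lower). An unadjusted p under 0.05 was found in 26 members (8.64%, against 9.54% of all transcripts) without replicate 2 of day 1, in 139 (46.2%, against 9.77%) without replicate 1 and in 93 (30.9%, against 8.54%) without replicate 3. Without day 3 replicates 1 to 3 in turn the number was 24 (7.97%, against 6.18%), 32 (10.6%, against 8.29%) and 19 (6.31%, against 6.05%). The lowest ratio of day 3 to day 1 was that of ENSRNOT00000031586.7, 0.0864, with a log2 fold change of -3.75 (SE 1.63, adjusted p = 0.522 in edgeR). ENSRNOT00000034166.5, with a ratio of 0.102, had 824, 747 and 269 TPM in control, 47.8, 764 and 90.1 TPM at day 1, 28.7, 29.4 and 31.2 TPM at day 3, and 88.6, 294 and 1334 TPM at day 14. The day 3 libraries were nearly equal and were below every other library. Its log2 fold change between day 3 and day 1 was -3.47 (SE 1.24, adjusted p = 0.439 in edgeR and 0.0275 in DESeq2).

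At day 14, the rule held the group ratio between 0.67 and 1.5, and the members had a median of 0.870 (quartiles 0.772 and 1.05), against 1.06 over the filtered transcripts. With the same members, the median was 1.03 without replicate 1 (1.02 over the filtered transcripts) and 0.689 without replicate 3 (1.08). The group ratio then stayed at 0.67 to 1.5 in 273 and 163 of the 301. The mean was under control in 210 members (69.8%, against 42.3% of the filtered transcripts) and above it in 91. A ratio of 0.8 to 1.2 was found in 174 members (57.8%, against 48.85%). All 3 day 14 libraries had a ratio of 0.67 to 1.5 in 51 members (16.9%), against 48.9% of the filtered transcripts, and 250 members had at least 1 library outside it. Replicate 1 was inside this range in 91 members (30.2%, against 65.6% of the filtered transcripts), replicate 2 in 235 (78.1%, against 70.5%) and replicate 3 in 211 (70.1%, against 75.5%). Taken singly, replicate 1 was thus the library far from the share of the filtered transcripts. The near-control mean combined a ratio under 0.67 in replicate 1 with one over 1 in replicate 3 in 173 members (57.5%), against 3.17% of the filtered transcripts. A level near control at day 14 therefore describes the group mean of these transcripts, and not each of the 3 libraries.

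Replicate 1 of day 14 was below all controls in 232 members, replicate 2 in 145 and replicate 3 in 19, where the filtered transcripts gave 22.7%, 29.2% and 28.2%. Replicate 3 was above all controls in 167 members (55.5%), against 31.2% of the filtered transcripts. Replicate 1 was the lowest and replicate 3 the highest day 14 library in 229 members (76.1%), against 14.2% of the filtered transcripts. In 184 members (61.1%) replicate 1 had at most 0.5 of the level in replicate 3, against 4.43% of the filtered transcripts. All 3 day 14 libraries were below all controls in 6 members, beside 10.1% of the filtered transcripts, and above all controls in 4, beside 17.3%. The rule itself keeps such members few.

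The number of transcripts that met the rule depended on replicate 3 of day 14. Without that library the rule chose 179 transcripts, and without replicates 1 or 2 of day 14 it chose 341 and 307. By edgeR, 0 of the 301 members were called at day 14 against control, beside 0.689% of all transcripts tested, with an unadjusted p under 0.05 for 3 members (0.997%, against 17.0% of all transcripts). DESeq2 called 0 members lower, beside 2.37% of its transcripts, and 0 higher. The rule used this contrast, and nothing can be read from these counts.

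The lowest day 14 ratio, 0.672, was that of ENSRNOT00000075708.3, with 8.97, 7.89 and 8.64 TPM in control, 4.21, 12.5 and 2.18 TPM at day 1, 3.38, 2.85 and 2.68 TPM at day 3, and 2.28, 5.67 and 8.19 TPM at day 14. Its replicate 1 of day 14 was below the day 3 libraries, while replicate 3 was within the control range. The highest, 1.499, was that of ENSRNOT00000026343.5, with 13.1, 4.98 and 9.08 TPM in control, 0.386, 19.5 and 3.96 TPM at day 1, 1.76, 2.40 and 2.06 TPM at day 3, and 5.07, 10.6 and 26.6 TPM at day 14. Here too replicate 1 was the lowest day 14 library, near the lowest control, and the high mean came from replicate 3.

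Between day 3 and day 14 the members were higher at day 14 in all cases, as the limits of the rule require. The 3 day 14 libraries were above all day 3 libraries in 240 members (79.7%), beside 13.4% of the filtered transcripts, and in 61 members at least 1 day 14 library overlapped day 3. Without replicate 1 of day 14 the number was 281, beside 17.2% of the filtered transcripts. Without replicate 2 it was 249, beside 16.9%, and without replicate 3 it was 245, beside 20.9%. By edgeR, 8 members were called, all higher at day 14 (2.66%, beside 0.485% of all transcripts tested, 136 being called higher and 419 lower), and the unadjusted p was under 0.05 for 219 (72.8%, against 19.0% of all transcripts). DESeq2 called 147 members higher (49.0%), beside 3.91% of its transcripts. The rule set limits on both days, so these counts and the shares without overlap describe the choice of members, and nothing is read from their distance to the background. The number in edgeR was 13 without replicate 1 of day 14, beside 0.342% of the transcripts tested in that fit, and 1 without replicate 2 of day 3, beside 0.180%. It was 0 without any one of day 14 replicates 2 and 3 and day 3 replicates 1 and 3. The shares of all transcripts called higher in these fits were 0.0411%, 0.240%, 0.0239% and 0.0307%. An unadjusted p under 0.05 was found there in 185, 100, 150 and 142 members (61.5%, 33.2%, 49.8% and 47.2%). The matching shares of all transcripts were 14.6%, 14.8%, 14.7% and 12.7%.

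The members with the lowest p in edgeR between day 14 and day 3 were not those with the largest changes. ENSRNOT00000038376.6 had 7.45, 8.39 and 9.17 TPM in control, 4.32, 6.57 and 7.32 TPM at day 1, 3.92, 2.23 and 4.68 TPM at day 3, and 10.3, 10.1 and 17.4 TPM at day 14. Its day 14 libraries were above all other libraries, and its day 1 libraries were below all controls. The log2 fold change between day 14 and day 3 was 1.91 (SE 0.34, adjusted p = 0.0226 in edgeR). ENSRNOT00000090442.2 had 61.0, 31.9 and 31.5 TPM in control, 11.2, 20.9 and 17.9 TPM at day 1, 11.3, 11.5 and 12.4 TPM at day 3, and 43.2, 30.9 and 45.95 TPM at day 14. In this transcript replicate 2 of day 1 was low as well, and the day 14 libraries were close to each other and to the controls. The log2 fold change was 1.86 (SE 0.34, adjusted p = 0.0264 in edgeR).

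The largest ratio of day 14 to day 3 was 22.7, in ENSRNOT00000031586.7, with a log2 fold change of 4.70 (SE 1.70, adjusted p = 0.173 in edgeR and 0.0114 in DESeq2). The next, 20.9, was in ENSRNOT00000016540.7, which had 557, 497 and 476 TPM in control, 26.4, 417 and 30.3 TPM at day 1, 36.2, 27.7 and 18.6 TPM at day 3, and 168, 553 and 1065 TPM at day 14. Its control libraries were close to each other, whereas replicate 2 of day 1 was far above the others of that day and just under the controls. The log2 fold change between day 14 and day 3 was 4.57 (SE 1.17, adjusted p = 0.0738 in edgeR and 4.3e-05 in DESeq2).

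The members differed in how low they were, and those that were lowest at day 3 were also those with the widest spread at day 1 and day 14. There were 11 members with a day 3 ratio of at most 0.1, 39 from 0.1 to 0.2, 53 from 0.2 to 0.3, 71 from 0.3 to 0.4 and 127 from 0.4 to 0.5. In replicate 1 of day 1, which the rule did not use, the median ratio of these classes was 0.0359, 0.111, 0.181, 0.285 and 0.402. In replicate 3 of day 1 it was 0.112, 0.188, 0.291, 0.397 and 0.485. The order of the classes at day 3 was thus found again in both libraries. In replicate 2 of day 1 the medians were 1.12, 1.01, 0.953, 0.987 and 0.968, near control in every class. The ratio of replicate 1 to replicate 2 of day 1 had a median of 0.0430 in the lowest class and 0.406 in the highest, against 1.05 over the filtered transcripts.

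At day 14 the same order held in replicate 1, with medians of 0.331, 0.350, 0.458, 0.560 and 0.659. In replicate 3 the lowest class had the highest median, 1.98, followed by 1.38, 1.30, 1.30 and 1.13. The ratio of replicate 1 to replicate 3 was 0.205 in the lowest class and 0.574 in the highest, against 1.16 over the filtered transcripts. The 11 lowest members had a median control level of 339 TPM, and the 127 highest had 25.6 TPM. With 1 TPM added, transcripts at low control levels cannot reach the lowest ratios. Part of this difference in control level is therefore built into the ratio. All classes share the same control libraries as their denominator, and the differences between classes were not tested.

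**Figure D3:**
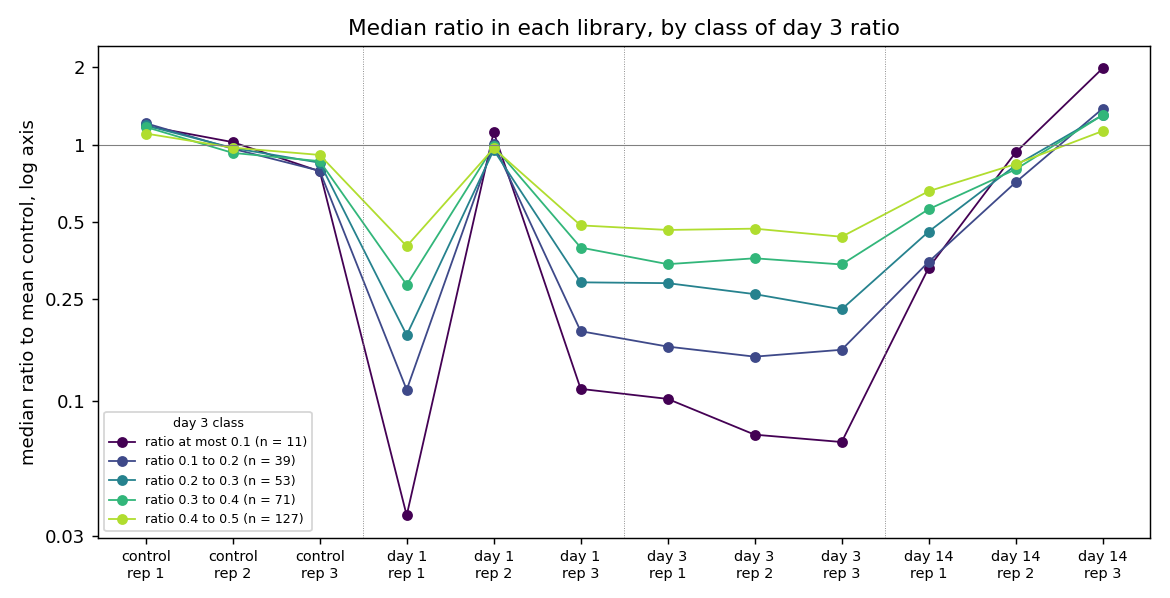
Median ratio to the control mean in each of the 12 libraries, on a log axis, for the 301 transcripts in 5 classes of the day 3 ratio (11, 39, 53, 71 and 127 transcripts). The classes are spread out in day 1 replicates 1 and 3 and at day 3, come together near 1 in day 1 replicate 2, and cross over between day 14 replicate 1 and replicate 3.

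By abundance, 53 members had a control mean of at least 100 TPM and together held 1.51% of control TPM, 96 had 30 to 100, 89 had 10 to 30 and 63 had under 10. In this order of abundance, the median ratio of day 1 was 0.526, 0.524, 0.545 and 0.651, and the median ratio of day 3 was 0.314, 0.371, 0.354 and 0.414. The pattern of the day 1 libraries was found at each level, with medians of 0.209, 0.955 and 0.322 in replicates 1 to 3 of the most abundant class and 0.358, 1.03 and 0.428 in the least abundant. A constant of 1 TPM is added to both parts of a ratio, which brings the ratio of transcripts at low TPM nearer to 1.

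The transcripts were a little shorter and more abundant in control than the filtered transcripts. The median length was 2283 bases (312 to 15155), against 2426, and the median control level was 29.5 TPM (4.40 to 960.1), against 14.7. The median number of reads per library was 1033 in control and 272 at day 3, against 584 and 640 for the filtered transcripts, so the day 3 values rest on fewer reads. The rule asks for a low day 3 level against control and for reads in every library. Part of these differences in level and reads is therefore set by the choice. The lowest count of a member in any library was 4, and the median of the lowest counts was 163. A total of 109 members had a day 3 mean under 5 TPM and passed the filter on level through another group. The edgeR filter on low counts kept all 301 members.

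The median coefficient of variation within a group was 20.5% in control and 21.4% at day 3, against 18.9% and 14.0% for the filtered transcripts. At day 14 it was 45.9%, against 20.6%. Control replicate 1 was the highest of the controls in 217 members (72.1%), against 20.5% of the filtered transcripts. The group means were in the order control, day 14, day 1, day 3 in 193 members (64.1%), against 4.66% of the filtered transcripts. Day 3 was the lowest group mean in 293 members (97.3%, against 17.2% of the filtered transcripts) and day 1 in 8 (2.66%, against 11.6%). The rule itself put the day 3 mean under those of control and day 14. The shares for these orders of the means are therefore set in large part by the choice.

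The rule was also applied with each control, day 3 and day 14 library left out in turn, and the left-out library was then read in the transcripts so chosen. Without replicate 1, 2 or 3 of day 3, the rule chose 321, 341 and 311 transcripts. The left-out day 3 library was below all controls in 93.5%, 94.1% and 95.2% of them, against 19.4%, 18.7% and 19.5% of the transcripts passing the filters without it. Without replicate 1, 2 or 3 of control, 289, 294 and 321 transcripts were chosen, and the left-out control library was above all day 3 libraries in 97.6%, 95.2% and 94.7%, against 18.4%, 19.9% and 23.0%. The left-out day 3 library had a ratio of at most 0.5 in 73.5%, 67.7% and 79.1% of the transcripts chosen without it, against 4.78%, 4.89% and 5.03% of those passing the filters. Taken against each left-out control library alone, the day 3 mean had such a ratio in 89.3%, 72.8% and 62.0%, against 4.85%, 3.61% and 3.75%. The other side of each of these comparisons is made of libraries that chose the transcripts, so they are not independent of the rule.

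The left-out day 14 libraries, read against controls and day 3 libraries that the rule used, did not give one level. Replicate 1 of day 14 had a ratio of 0.67 to 1.5 in 23.8% of the 341 transcripts chosen without it, against 65.8% of the transcripts passing the filters. For replicate 2 the share was 71.0% of 307, against 70.5%, and for replicate 3 it was 57.0% of 179, against 75.4%. The median ratio in the left-out library was 0.485, 0.788 and 1.29 for replicates 1 to 3. Each left-out day 14 library was above all day 3 libraries in most of the chosen transcripts, 79.8%, 93.2% and 95.0% in turn, against 33.8%, 27.2% and 25.2%. The rule chose these transcripts for low day 3 levels, so part of that distance is set by the choice.

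Transcripts that were low at day 3 by the same limits but had a ratio of at most 0.5 at day 14 too numbered 98. At day 1 their median ratio was 0.199, 0.743 and 0.291 in replicates 1 to 3, beside 0.280, 0.982 and 0.397 for the 301 members, so replicate 2 had the highest median of day 1 in both sets. At day 14 it was 0.220, 0.315 and 0.493, again lowest in replicate 1 and highest in replicate 3. Of opposite direction, 436 transcripts had a ratio of at least 2 at day 3 without overlap and were back at 0.67 to 1.5 at day 14. Their median ratio was 1.38, 1.19 and 1.57 in the day 1 libraries and 1.28, 0.927 and 0.810 in the day 14 libraries, so that replicate 2 of day 1 and replicate 3 of day 14 here had the lowest medians of their groups. The differences between these sets and the 301 members were not tested.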

How the data were processed

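The authors quantified poly(A) RNA libraries (NEBNext Ultra Directional) with Salmon, whose version is not given in the sources used here, against Ensembl rat transcripts of mRatBN7.2; the submitters' processing notes name rn6. The deposited tables give, per transcript, an estimated count (reads assigned by Salmon, not normalized), a TPM value (scaled for length and depth) and other columns for lengths. Members, ratios and shares were computed from the deposited TPM. Estimated counts were rounded to whole numbers and tested per transcript in R 4.3.3 with edgeR 4.0.16, after its filter on low counts (filterByExpr) and TMM scaling, by the quasi-likelihood test with a robust fit (glmQLFit, glmQLFTest), with the 12 libraries in 1 fit and Benjamini-Hochberg adjustment over all 28016 transcripts. A call needed an adjusted p under 0.05 and over 2-fold. SE was the log2 fold change over the root of F. DESeq2 1.42.0 was the other tool. The edgeR script was tested on simulated data. Other steps used Python 3.11.15.

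The members and lists were chosen with earlier results of these data known. Gene lists and cell type markers were set but not used, since no identifier had a symbol. Named transcripts are, against control, the highest control level and lowest ratio at day 3, the 2 lowest and 2 highest ratios at day 1, and the lowest and highest at day 14. Between days they are the 2 largest ratios of day 14 to day 3, the 2 lowest of day 3 to day 1, and up to 2 edgeR calls per direction by p. With 3 libraries per group, a p-value of the main fit sets a difference against the spread between libraries of a group. That spread was estimated from all 12 libraries together, the uneven day 1 and day 14 groups among them. Alternatives were another tool, normalization, filter, fit, threshold or pseudocount, a replicate block and leaving out each library.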

Additional observations from a re-analysis of the deposited data

How the results depend on the processing

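The number of members called depended on the test, the filter on counts and the libraries in the fit more than on the normalization. At day 3 against control, where edgeR called 0 (276 with an unadjusted p under 0.05), DESeq2 called 226, a filter of 10 counts in every library gave 20, only the 2 compared groups in the fit gave 205, the bias-adjusted quasi-likelihood method gave 2 and a replicate block gave 1. For day 14 against day 3, the 8 calls became 147, 47, 40, 28 and 1 in the same order, and 5 with no filter beyond 1 count. The share of all transcripts called lower at day 3 in these fits was 3.31% (DESeq2), 0.444%, 2.38%, 0.0892% and 0.00714%, and the share called higher at day 14 against day 3 was 3.91%, 2.02%, 1.10%, 1.41%, 0.2499% and, without the filter, 0.260%. Leaving out each library gave 0 to 13 (13 without day 14 replicate 1). At day 1 against control, where edgeR called 0 (63 with an unadjusted p under 0.05), DESeq2 called 4, and leaving out each library gave 0 to 4 (4 without day 1 replicate 2). For day 3 against day 1, edgeR called 0 (56 with an unadjusted p under 0.05) and DESeq2 called 10. At day 14 against control the number was 0 with edgeR (3 with an unadjusted p under 0.05), and under all 14 alternatives, DESeq2 among them. The cause was not tested. Deviations from the group means correlated above 0.1 in 3 of 18 pairs of libraries with the same replicate number, with a median of -0.02. The highest value was 0.289, for replicate 3 of control and of day 1. These correlations cannot show whether a control library and a treated library came from the same rat.

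The rule chose 174 transcripts with a day 3 ratio of at most 0.4, 472 with at most 0.6 and 174 with a day 14 ratio of 0.8 to 1.2. Without each control, day 3 or day 14 library it chose 179 to 341, without each day 1 library 301 to 310, and 244 to 344 under the other changes of pseudocount, filter or scaling. With TPM rescaled by TMM factors, which moved the median log2 ratio of the filtered transcripts by -0.12 at day 1, 316 were chosen, 274 of them members. The median day 1 ratio of 0.553 was 0.350 (without day 1 replicate 2) to 0.682 with libraries left out, 0.514 with TMM factors and 0.426 from group medians. Chosen after seeing the data were the rule without a day 1 library and the counts of members without overlap when a day 1 or day 14 library was left out. Day 1 below all controls went from 60 to 279 without day 1 replicate 2. Depth limits members at few reads, and 3 libraries per group limit the tests.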
